A study of Mus musculus with 8 samples.

Results

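Potassium channels carry potassium out of a cell and hold its membrane potential near rest. The genes described here are the protein-coding genes of the deposited table whose symbols begin with Kcn followed by letters and a number, together with the sulfonylurea receptor genes Abcc8 and Abcc9. The rule found 86 genes among 27534 in the table, of which 17059 are protein-coding. They were read in isolated pancreatic islets of C57BL/6J mice, the clusters of endocrine cells that hold the insulin-producing β cells. After 72 h of culture in RPMI 1640 medium with serum, with glucose at either 20 mM (called high glucose) or 7.5 mM (called low glucose), 4 bulk RNA libraries were sequenced per group. No genotype, age or agent other than glucose is named for either group. The labels do not say whether the libraries came from separate animals or cultures, so p-values measure only the spread between these libraries.

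In the β cell the channel that sets the resting potential is the ATP-sensitive (KATP) channel, built of the pore subunit encoded by Kcnj11 and the sulfonylurea receptor SUR1 encoded by Abcc8. Glucose metabolism closes it, the membrane depolarises, calcium enters through voltage-gated channels and insulin is released. Voltage-gated and calcium-activated potassium channels then repolarise the membrane and shape each burst of action potentials, while two-pore channels supply a background leak, and auxiliary subunits set the gating and surface level of the pores they bind.

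After 72 h in high glucose, 11 of these genes were higher and 6 were lower than in low glucose, and the changes cut across the channel families. The two-pore channel genes Kcnk16 and Kcnk1, the voltage-gated genes Kcnh1 and Kcna2 and the calcium-activated gene Kcnn3 rose. So did the receptor gene Abcc9, the low-level two-pore gene Kcnk10 and 4 genes of auxiliary subunits. The KATP pore gene Kcnj11, the inward rectifier Kcnj12, the modulatory subunit Kcng3, the channel gene Kcnh2 and the auxiliary subunit Kcnmb2 were among the 6 that fell. Abcc8 did not pass the test.

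Of the 86 genes, 60 had enough counts to be tested and 26 did not. The highest mean among the 26 was 0.440 CPM (counts scaled to a common library size corrected by TMM). Here a call means a Benjamini-Hochberg adjusted p under 0.05 in edgeR's quasi-likelihood test over all 15442 genes tested. The 17 called were 28.3% of the 60 tested, where 25.0% of all tested genes were called. Higher calls made up 18.3% of the tested members against 13.1% of all tested genes, and lower calls 10.0% against 11.9%. The shares of the members thus lay near those of all genes. The libraries of the 2 groups did not overlap for 19 of the 60 members, or 31.7%, against 27.3% of all genes tested. All 17 called members were among the 19. The other two, Kcnh3 and Kcnk13, are named here after their values were seen. The median log2 fold change of the tested members was 0.04, and that of all tested genes was -0.01. Of the 17, 6 differed by at least 2-fold, 4 upward and 2 downward. Without low glucose replicate 2, a fit that called 5132 of 15849 genes, 21 members were called, 11 higher and 10 lower. In the authors' deposited table the same 17 members had an adjusted p under 0.05, each in the same direction.

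**Figure D1:**
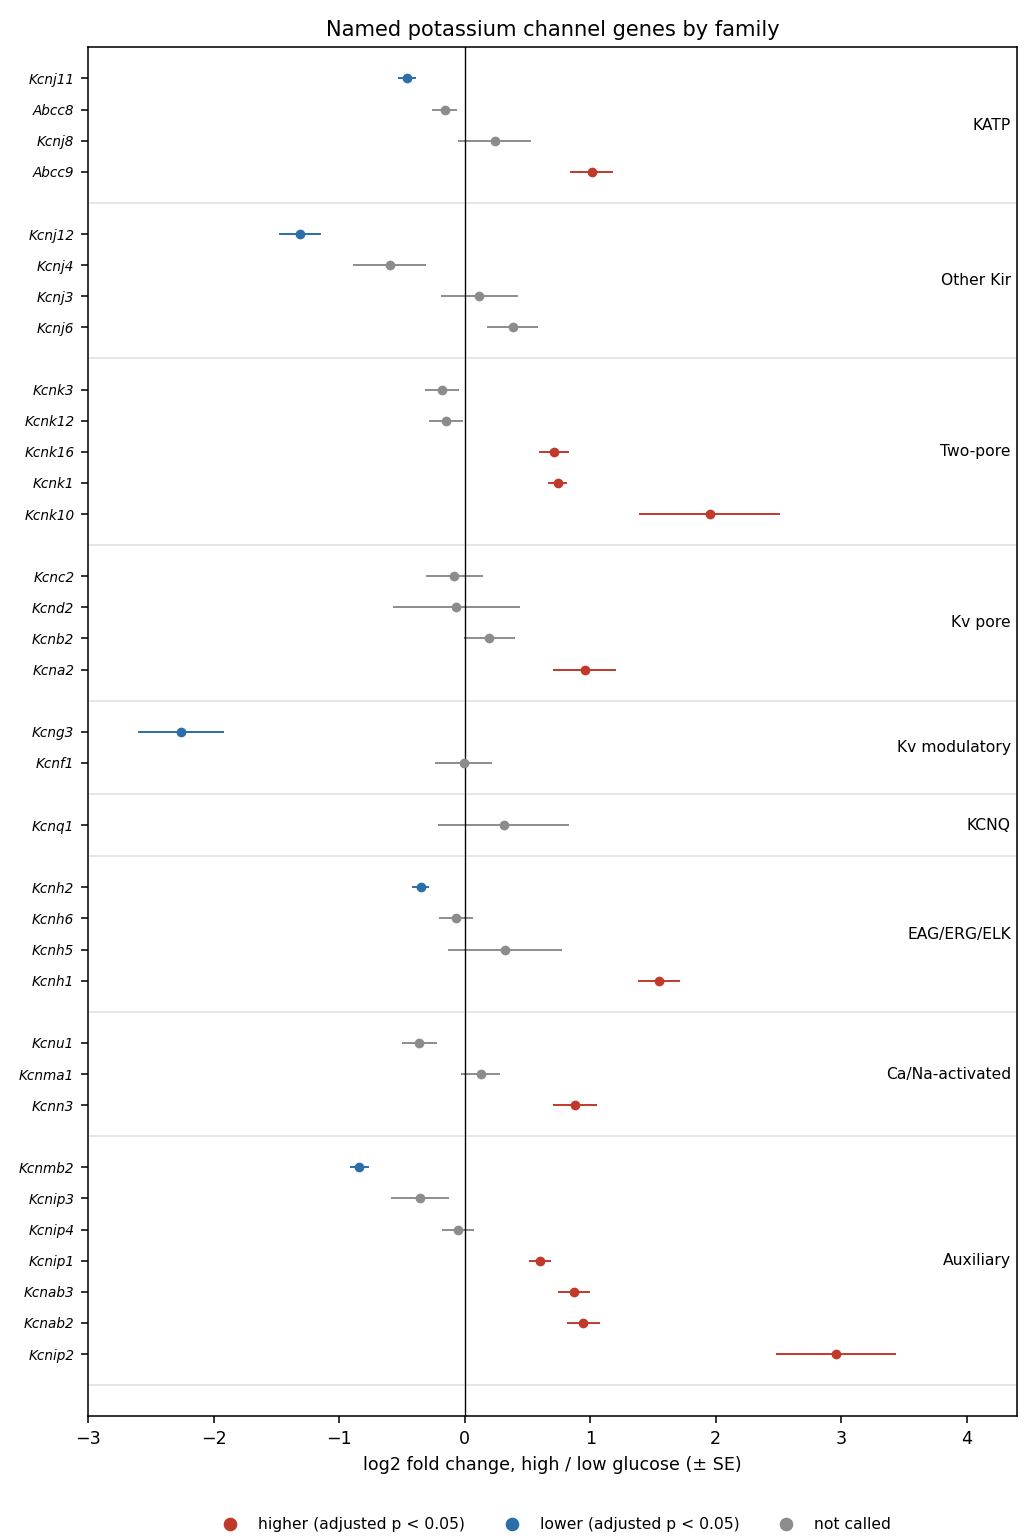
Log2 fold change, high over low glucose, of 34 tested members named in the text, grouped by family (vertical axis), with bars of 1 standard error and colours for the 16 of them that were called. Called genes lie on both sides of 0, from -2.26 for Kcng3 to 2.96 for Kcnip2.

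The islet label was checked against markers. The insulin genes Ins1 and Ins2 took 17.2% to 22.7% of the 19543045 to 24949515 counts of a library, and all channel members together took 0.196% to 0.256%. In high and low glucose libraries respectively, acinar markers summed to 3067 to 16052 and 1062 to 9078 CPM and delta-cell markers to 2496 to 4172 and 1576 to 3079 CPM. Both sums were higher at high glucose in 4 of 4 same-numbered pairs. Alpha-cell markers summed to 12512 to 25153 and 14248 to 29407 CPM, and PP-cell markers (Ppy and Pyy) to 2855 to 4233 and 2991 to 5846 CPM. The macrophage sums were 199.7 to 299.5 and 232.9 to 371.1 CPM. Low glucose replicate 2 had the highest alpha, PP and macrophage sums of all 8 libraries. The ductal sums did not overlap, at 539.4 to 560.8 and 395.9 to 518.6 CPM. The fibroblast sums were 120.9 to 1081 and 92.1 to 278.4 CPM, and the endothelial sums 17.3 to 24.1 and 20.4 to 27.4 CPM. Called among all non-β markers were Ttr (alpha list) and Spp1 (ductal list), both higher. Their part in the channel results was not tested. Of the 6 β-cell markers, Iapp was higher and Mafa, Slc2a2 and Ucn3 were lower. Their sum was 204206 to 269954 CPM in high and 184490 to 264804 CPM in low glucose. It too was higher at high glucose in 4 of 4 same-numbered pairs. In bulk islets, fewer cells of a type and less RNA per cell cannot be told apart. Among the 25 members at a mean of 5 CPM or more, low glucose replicate 2 was the lowest of its group for 14. Some results, but not all, are also given below without it.

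RefSeq (GRCm38.p6) lists a start for 64 of the 86 members, including 14 of the 17 called. The 250 bases before that start are shown for the most abundant pair of two-pore genes that rose together and for Kcnh1 and Kcng3, which rose and fell by large folds at levels above the counting floor. All are written 5′ to 3′ on the gene's strand, with matches to CCAAT or GGGCGG, or to their reverse complements, in capitals. The windows are chr14:20269270-20269519 (minus strand) for Kcnk16, chr8:125994852-125995101 (plus strand) for Kcnk1, chr1:192190527-192190776 (plus strand) for Kcnh1 and chr17:83631896-83632145 (minus strand) for Kcng3.
Kcnk16: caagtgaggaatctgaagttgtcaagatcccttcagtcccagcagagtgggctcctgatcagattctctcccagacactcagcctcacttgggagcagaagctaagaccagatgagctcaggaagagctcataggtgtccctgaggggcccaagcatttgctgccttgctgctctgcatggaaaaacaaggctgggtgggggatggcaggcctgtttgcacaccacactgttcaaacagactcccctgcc
Kcnk1: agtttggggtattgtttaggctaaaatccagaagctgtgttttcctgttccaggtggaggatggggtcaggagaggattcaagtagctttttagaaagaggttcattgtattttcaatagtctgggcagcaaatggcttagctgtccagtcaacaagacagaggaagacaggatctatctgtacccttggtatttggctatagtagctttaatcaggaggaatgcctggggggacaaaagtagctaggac
Kcnh1: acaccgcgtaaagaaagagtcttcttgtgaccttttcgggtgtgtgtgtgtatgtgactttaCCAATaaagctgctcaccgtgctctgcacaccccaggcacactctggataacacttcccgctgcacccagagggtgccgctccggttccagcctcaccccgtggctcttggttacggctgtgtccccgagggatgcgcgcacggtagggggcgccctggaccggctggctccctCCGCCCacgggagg
Kcng3: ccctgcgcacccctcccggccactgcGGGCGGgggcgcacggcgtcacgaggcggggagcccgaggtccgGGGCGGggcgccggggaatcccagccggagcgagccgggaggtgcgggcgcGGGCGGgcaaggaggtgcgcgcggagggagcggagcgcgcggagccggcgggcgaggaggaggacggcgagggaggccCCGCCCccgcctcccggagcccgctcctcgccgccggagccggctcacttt
The windows differ in their content of G and C, which was 54.8% for Kcnk16, 44.4% for Kcnk1, 62.0% for Kcnh1 and 82.4% for Kcng3, against a median of 52.4% over 32851 windows of this length. The Kcnk16 and Kcnk1 windows hold no CG dinucleotide, whereas that of Kcnh1 holds 17 and that of Kcng3 holds 41. The motifs searched on both strands were the E box CACGTG, the cyclic AMP response element TGACGTCA, the TATA motif TATAAA, the GC box GGGCGG and the CCAAT box, and no motif overlaps another in the windows shown. None of them is in the Kcnk16 or Kcnk1 window. Members were counted as genes, each holding a motif if any of its windows did, while the shares of all windows are per window. CCAAT was found in 6 of 10 higher, 0 of 4 lower and 8 of 29 tested but uncalled members, against 33.8% of all windows. GGGCGG was found in 6 of 10 higher, 2 of 4 lower and 19 of 29 uncalled members, against 32.7% of all windows. CACGTG, TGACGTCA and TATAAA, present in 6.02%, 1.55% and 12.4% of all windows, were in none of these 14 higher or lower members. These are matches of letters only and show no binding.

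Of the 4 KATP genes, 1 fell, 1 rose and 2 were not called, a called share of 50.0% beside 25.0% of all genes tested. Kcnj11 (chr7:46093953-46100764), whose product is the potassium pore of the β-cell KATP channel, stood at 119.2, 130.2, 134.5 and 113.3 CPM in the high glucose libraries and at 168.5, 169.0, 176.7 and 169.5 CPM in the low glucose libraries. Every high glucose library lay below every low glucose library. The fall was 1.38-fold (log2 fold change -0.46 ± 0.07 SE, adjusted p = 0.00116).

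Abcc8, the SUR1 gene next to Kcnj11, stood at 863.2, 840.2, 914.5 and 867.0 CPM in high glucose and at 1090.3, 803.5, 1071.7 and 927.9 CPM in low glucose. The groups overlapped, because low glucose replicate 2 was the lowest of all 8 libraries. The log2 fold change was -0.16 ± 0.10 (SE), with an adjusted p of 0.293. Without low glucose replicate 2 it was -0.24 with an adjusted p of 0.0377. Without both libraries numbered 2 it was -0.22 with an adjusted p of 0.0527. With the replicate block it was -0.15 with an adjusted p of 0.107, so neither of these fits called it.

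Because pore and receptor assemble in equal numbers, the ratio of their levels per gene length (FPKM, from the deposited table) was taken in each library. The Kcnj11/Abcc8 ratio was 0.304, 0.341, 0.324 and 0.287 in high glucose and 0.340, 0.463, 0.363 and 0.402 in low glucose. High glucose replicate 2 thus lay just above low glucose replicate 1, and the other libraries did not overlap. The mean was 0.314 ± 0.0233 (SD, n = 4) against 0.392 ± 0.0537 (SD, n = 4), a log2 difference of -0.31. A two-sided exact permutation test over libraries gave p = 0.0571, where the smallest p possible was 0.0286. Leaving out low glucose replicate 1 gave -0.38 with an exact permutation p of 0.0286, and leaving out low glucose replicate 2 gave -0.23 with an exact permutation p of 0.0857. Leaving out any other single library gave p = 0.0571 or 0.0857 by the same exact test.

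**Figure D2:**
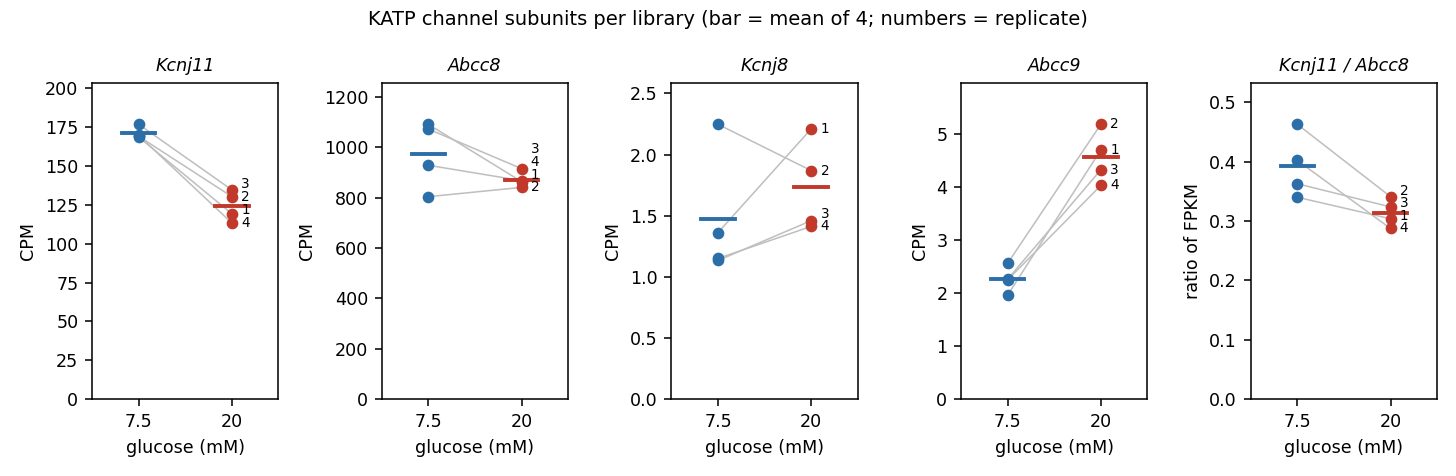
CPM of the 4 KATP subunit genes, and the Kcnj11/Abcc8 ratio of FPKM, in each library at 7.5 and 20 mM glucose. Bars are means of 4 libraries, and grey lines join libraries with the same replicate number. The groups of Kcnj11 and Abcc9 do not overlap, and those of the other 3 panels do.

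The second KATP pair, Kcnj8 and Abcc9 (encoding SUR2), forms the channel of vascular smooth muscle and pericytes. Abcc9 (chr6:142587862-142702315) stood at 4.71, 5.19, 4.33 and 4.04 CPM in high glucose and at 1.97, 2.57, 2.27 and 2.25 CPM in low glucose. It was 2.02-fold higher without overlap (log2 1.01 ± 0.17 SE, adjusted p = 0.00163). Kcnj8, its pore partner, averaged 1.74 ± 0.375 CPM at high and 1.47 ± 0.526 CPM at low glucose (SD, n = 4 each), with log2 0.24 ± 0.29 (SE) and adjusted p = 0.594.

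Several measurements moved with Abcc9 or stand beside it. The antisense gene 5330439B14Rik, which lies within Abcc9 on the opposite strand, had 36, 32, 20 and 59 counts in high glucose and 6, 0, 3 and 0 in low glucose (adjusted p = 0.00139). Its mean count was 26.7% of that of Abcc9, and without a stated strand setting reads of the overlap cannot be told apart. Among the mural-cell markers, 0 of 6 tested were called by edgeR, DESeq2 or limma-voom, and 0 had an unadjusted p under 0.05 in any of these. With the replicate block 0 were called and 3 had an unadjusted p under 0.05, and the median log2 fold change of the 6 was 0.26. The sum of the markers was 69.5 to 108.2 CPM in high glucose and 57.9 to 86.5 CPM in low glucose. The part of either in the Abcc9 result was not tested.

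Among the other inward rectifiers, 12 genes of which 6 were tested, Kcnj12 fell and none rose (0 rose by edgeR, DESeq2 or limma-voom, at an unadjusted p under 0.05 as well). The called share was 16.7% of the 6, beside 25.0% of all genes tested. With the replicate block 0 were called higher and 1 had an unadjusted p under 0.05. Kcnj12 (chr11:61022564-61071131) encodes a strongly rectifying channel best known from heart and skeletal muscle. It stood at 8.94, 5.92, 9.80 and 10.2 CPM in high glucose and at 23.3, 17.5, 23.3 and 22.5 CPM in low glucose. No library overlapped, and the fall was 2.48-fold (log2 -1.31 ± 0.17 SE, adjusted p = 0.000319).

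The remaining rectifier genes were low. The G-protein-gated genes Kcnj6 and Kcnj3 stood at 5.21 and 2.55 CPM in high glucose and at 4.00 and 2.35 CPM in low glucose, with adjusted p-values of 0.211 and 0.821. Kcnj5, of the same subgroup, had too few counts to be tested, with 0.252 and 0.320 CPM. Kcnj4 averaged 1.52 ± 0.266 CPM at high and 2.30 ± 0.864 CPM at low glucose (SD, n = 4 each, adjusted p = 0.172).

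Among the two-pore channels, Kcnk16, Kcnk1 and Kcnk10 rose. Of 13 genes, 9 were tested, 3 rose and none fell. By edgeR, DESeq2 or limma-voom 0 fell, and 0 were lower at an unadjusted p under 0.05. The share called, all higher, was 33.3% of the 9, beside 25.0% called and 13.1% called higher over all genes tested. The median log2 fold change of the 9 was 0.59, against -0.01 over all genes tested. That median is the value of Kcnk13, which was not called and averaged 2.17 CPM. Among more abundant genes, Kcnk16 and Kcnk1 had log2 fold changes of 0.71 and 0.74, and Kcnk12 and Kcnk3 of -0.15 and -0.18. Kcnk16 (chr14:20261376-20269199) encodes TALK-1, an alkaline-activated leak channel found largely in the pancreas. It stood at 360.8, 396.8, 339.1 and 342.0 CPM in high glucose and at 216.4, 274.3, 180.4 and 207.8 CPM in low glucose. The lowest high glucose library lay above the highest low glucose library. The rise was 1.64-fold (log2 0.71 ± 0.12 SE, adjusted p = 0.00176).

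Kcnk1 (chr8:125995170-126030685), the gene of the weak rectifier TWIK-1, changed by nearly the same factor. It stood at 40.7, 43.1, 43.7 and 40.9 CPM in high glucose and at 23.0, 27.3, 24.5 and 26.1 CPM in low glucose. The libraries within each group were close together and the groups far apart, with a rise of 1.67-fold (log2 0.74 ± 0.07 SE, adjusted p = 6.62e-05).

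The third, Kcnk10 (chr12:98429437-98578310), encodes the mechanically gated TREK-2 and was a rare transcript with 20 to 41 counts per high glucose library and 2 to 15 per low glucose library. It stood at 1.97, 1.61, 0.942 and 0.888 CPM against 0.151, 0.803, 0.378 and 0.0959 CPM, so the lowest high library was just above low glucose replicate 2. The log2 fold change was 1.95 ± 0.56 (SE, adjusted p = 0.0274). The call was lost on leaving out any 1 of high glucose replicates 1 and 2 or low glucose replicates 1, 3 and 4, with adjusted p-values up to 0.0807. The acid-sensitive channel gene Kcnk3 averaged 16.9 ± 2.79 CPM at high and 19.2 ± 2.23 CPM at low glucose (SD, n = 4 each, adjusted p = 0.362). Kcnk12, whose product is a silent subunit, was at 15.8 ± 2.20 and 17.5 ± 2.71 CPM (adjusted p = 0.467), so neither of these passed.

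Levels between genes are compared on FPKM, the scale per gene length. Kcnk16 and Abcc8 were the most abundant of all 86 members. Kcnk16 was at 149.9 ± 10.2 FPKM in high and 90.2 ± 15.98 FPKM in low glucose, and Abcc8 at 106.7 ± 4.53 and 117.5 ± 16.04 FPKM (SD, n = 4 each). The Kcnk16/Abcc8 ratio was 1.42, 1.61, 1.26 and 1.34 in the high glucose libraries and 0.675, 1.16, 0.573 and 0.762 in the low glucose libraries. Kcnk16 thus ranked first in every high glucose library, and in low glucose it did so in replicate 2 alone.

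Below this pair came Kcnj11 with 33.5 ± 2.73 and 45.4 ± 1.05 FPKM, and Kcnmb2 with 22.8 ± 1.85 and 40.2 ± 1.04 FPKM. The next 4 were Kcnh2, Kcnh6, Kcnk1 and Kcnip1, which lay between 15.8 and 18.7 FPKM in high glucose and between 10.3 and 23.5 FPKM in low glucose. In high glucose Kcnh2, Kcnk1 and Kcnh6, at 18.7, 18.7 and 18.2 FPKM, differed by less than their spread, while in low glucose Kcnk1, at 11.02 ± 0.846 FPKM, lay below Kcnh6, at 18.8 ± 3.84 FPKM. Over both groups, 13 members averaged at least 5 FPKM, 12 averaged 1 to 5 FPKM and 61 averaged less than 1 FPKM.

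**Figure D3:**
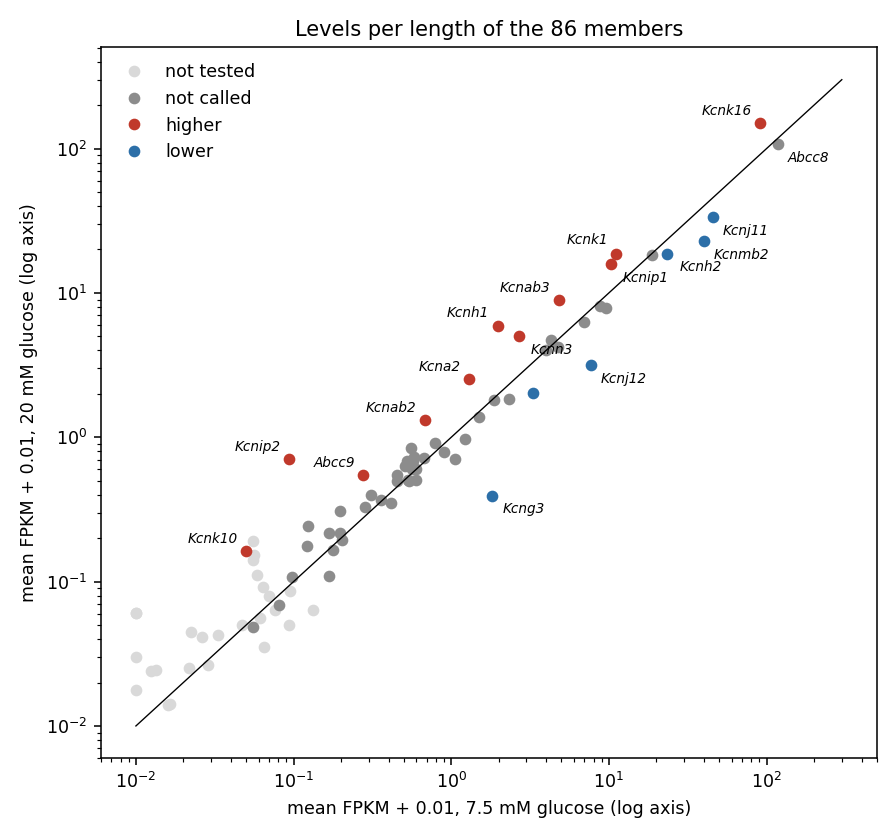
Mean FPKM plus 0.01 of all 86 members in 7.5 mM (horizontal) and 20 mM glucose (vertical), both axes logarithmic, with the line of equal level. Kcnk16 and Abcc8 lie at the top on opposite sides of the line, and 61 members average less than 1 FPKM.

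The voltage-gated pore genes of the Kcna to Kcnd subfamilies carry the delayed and transient currents that end an action potential. Of these, 13 of 16 were tested and Kcna2 was the 1 called, 7.69% beside 25.0% of all genes tested. Kcna2 (chr3:107101146-107115005) stood at 26.1, 24.3, 37.7 and 33.3 CPM in high glucose and at 15.3, 8.03, 21.1 and 18.1 CPM in low glucose. The groups did not overlap, and the rise was 1.94-fold (adjusted p = 0.0180). The log2 fold change was 0.95, and 0.74 without low glucose replicate 2 (adjusted p = 0.00620). Without high glucose replicate 3 the adjusted p was 0.0558.

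Kcna1, named after its values were seen, stood at 1.73, 0.519, 0.848 and 1.37 CPM in high glucose and at 0.568, 0.321, 0.425 and 0.911 CPM in low glucose. It was higher in 4 of 4 same-numbered pairs, although the groups overlapped, and its adjusted p was 0.133. With the replicate number as a block, a fit that calls 37.4% of all genes tested, the adjusted p was 0.0483. The blocked fit called 19 members, including all 17.

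Kcnb2, a delayed rectifier gene, averaged 13.9 ± 1.64 CPM at high and 12.1 ± 3.51 CPM at low glucose (SD, n = 4 each, adjusted p = 0.531). Its log2 fold change was 0.19, and 0.0073 without low glucose replicate 2. Kcnc2 and Kcnd2 were at 3.58 and 0.967 CPM in high glucose and at 3.80 and 1.01 CPM in low glucose, with adjusted p-values of 0.827 and 0.942.

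The modulatory subunits form no channel alone and join voltage-gated pores. Of 6 genes, 2 were tested. Kcng3 (chr17:83585957-83631895) stood at 1.73, 0.831, 1.18 and 1.45 CPM in high glucose and at 6.36, 2.89, 8.65 and 7.05 CPM in low glucose. Replicate 2 was the lowest library of both groups, yet the groups did not overlap. The fall was 4.78-fold (log2 -2.26 ± 0.34 SE, adjusted p = 0.000895). Kcnf1 was at 19.3 ± 6.94 and 19.4 ± 3.58 CPM (SD, n = 4 each, adjusted p = 0.983).

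At the other end of detection, Kcng4 and Kcng2 were untested and are named after their values were seen. Kcng4 had 16 counts over the high glucose libraries and 0 over the low ones, and Kcng2 had 13 and 0. Set against a floor of 3 counts over the low glucose group, their pooled counts were 5.40-fold and 4.39-fold higher. These folds take no account of the spread between libraries. In the high glucose libraries Kcng4 had 6, 4, 5 and 1 counts and Kcng2 had 1, 7, 0 and 5, so the groups of Kcng2 overlapped.

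Genes of the EAG, ERG and ELK group, slow voltage-gated channels, gave 1 rise and 1 fall among 7 tested of 8. The share called was 28.6%, beside 25.0% of all genes tested. Kcnh1 (chr1:192190774-192510159), the EAG1 gene, stood at 37.5, 34.2, 52.0 and 49.6 CPM in high glucose and at 13.8, 11.5, 18.2 and 15.8 CPM in low glucose. The gap between the groups was wide, and the rise was 2.92-fold (log2 1.55 ± 0.17 SE, adjusted p = 0.000125). Its 3′ part overlaps Hhat on the other strand, which had 28.0% of its mean count and also rose (log2 0.48, adjusted p = 0.0181), so reads of the overlap cannot be assigned.

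Kcnh2 (chr5:24319589-24351604), the ERG1 gene, stood at 97.1, 90.6, 93.9 and 84.2 CPM in high glucose and at 109.8, 116.2, 123.2 and 117.3 CPM in low glucose. All high glucose libraries were below all low glucose libraries, though the fall was small, 1.27-fold (log2 -0.35 ± 0.07 SE, adjusted p = 0.00433). Kcnh6, a related ERG gene, was at 65.3 ± 6.13 and 68.5 ± 14.04 CPM (SD, n = 4 each, adjusted p = 0.762). Kcnh5, the second EAG gene, was at 2.96 ± 0.827 and 2.37 ± 1.38 CPM (adjusted p = 0.656).

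Kcnq1, a KCNQ gene whose channel carries delayed currents in heart and epithelia, averaged 2.58 ± 1.91 CPM at high and 2.10 ± 1.08 CPM at low glucose (SD, n = 4 each, adjusted p = 0.710). The antisense gene Kcnq1ot1 had 461% of its counts, which leaves the value uncertain.

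Among the calcium- and sodium-activated channels, 6 of 8 genes were tested and Kcnn3 alone was called. That is a share of 16.7%, beside 25.0% of all genes tested. Kcnn3 (chr3:89520164-89675132) encodes a small-conductance (SK) channel that calcium opens through calmodulin. It stood at 51.3, 43.2, 62.6 and 54.1 CPM in high glucose and at 33.8, 18.5, 31.2 and 31.2 CPM in low glucose. The groups did not overlap, and the rise was 1.84-fold (log2 0.88 ± 0.17 SE, adjusted p = 0.00430).

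Kcnma1, the pore gene of the large-conductance (BK) channel, averaged 81.2 ± 10.95 CPM at high and 74.3 ± 15.9 CPM at low glucose (SD, n = 4 each, adjusted p = 0.598). Kcnu1, a BK-related gene, was at 6.89 ± 0.277 and 8.82 ± 1.41 CPM (adjusted p = 0.0829), and without low glucose replicate 2 its adjusted p was 0.0203.

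The auxiliary subunits, 10 tested of 14, gave 4 higher and 1 lower, a share of 50.0% called, beside 25.0% of all genes tested. Kcnmb2 (chr3:31902507-32200180), whose product inactivates the BK channel, stood at 69.9, 78.6, 74.6 and 65.0 CPM in high glucose and at 124.9, 132.6, 130.8 and 126.7 CPM in low glucose. The groups lay far apart with little spread within each, and the fall was 1.79-fold (log2 -0.84 ± 0.07 SE, adjusted p = 3.33e-05). Its pore partner Kcnma1 did not pass, as given above.

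Kcnip1 and Kcnip2 encode calcium-binding partners (KChIPs) of the Kcnd pores. Kcnip1 (chr11:33629339-33993152) stood at 91.1, 105.2, 112.1 and 87.3 CPM in high glucose and at 65.2, 70.04, 64.0 and 61.9 CPM in low glucose, a rise of 1.52-fold without overlap (adjusted p = 0.000842). Kcnip2 (chr19:45791839-45816061) stood at 1.63, 2.18, 2.83 and 3.15 CPM in high glucose and at 0.606, 0.0535, 0.189 and 0.336 CPM in low glucose. It was close to the floor in low glucose, with 1 to 16 counts per library against 34 to 78 in high glucose. The log2 fold change of 2.96 ± 0.48 (SE, adjusted p = 0.00129) is therefore a fitted value that small counts make imprecise. The other two, Kcnip3 and Kcnip4, were at 3.46 and 6.60 CPM in high and at 4.42 and 6.85 CPM in low glucose, with adjusted p-values of 0.303 and 0.796.

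Kcnab2 and Kcnab3 encode β subunits of the Kcna pores. Kcnab3 (chr11:69326258-69333042) stood at 28.2, 25.1, 29.0 and 20.4 CPM in high glucose and at 15.5, 12.9, 15.6 and 12.1 CPM in low glucose, a rise of 1.83-fold without overlap (adjusted p = 0.000832). Kcnab2 (chr4:152390742-152477871) stood at 8.12, 7.37, 7.35 and 6.54 CPM in high glucose and at 3.94, 4.01, 3.498 and 3.79 CPM in low glucose, a rise of 1.93-fold (adjusted p = 0.000599). The opposite-strand gene Nphp4 overlaps the start of Kcnab2, has 219% of its counts and rose as well (log2 0.45, adjusted p = 0.0461), so the Kcnab2 value is uncertain. Kcna2, the pore gene described above, rose alongside both. Kcnab1, of the same group and named after its values were seen, was low, at a mean of 1.12 CPM. It had a log2 fold change of -0.66 ± 0.34 (SE, adjusted p = 0.196).

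**Figure D4:**
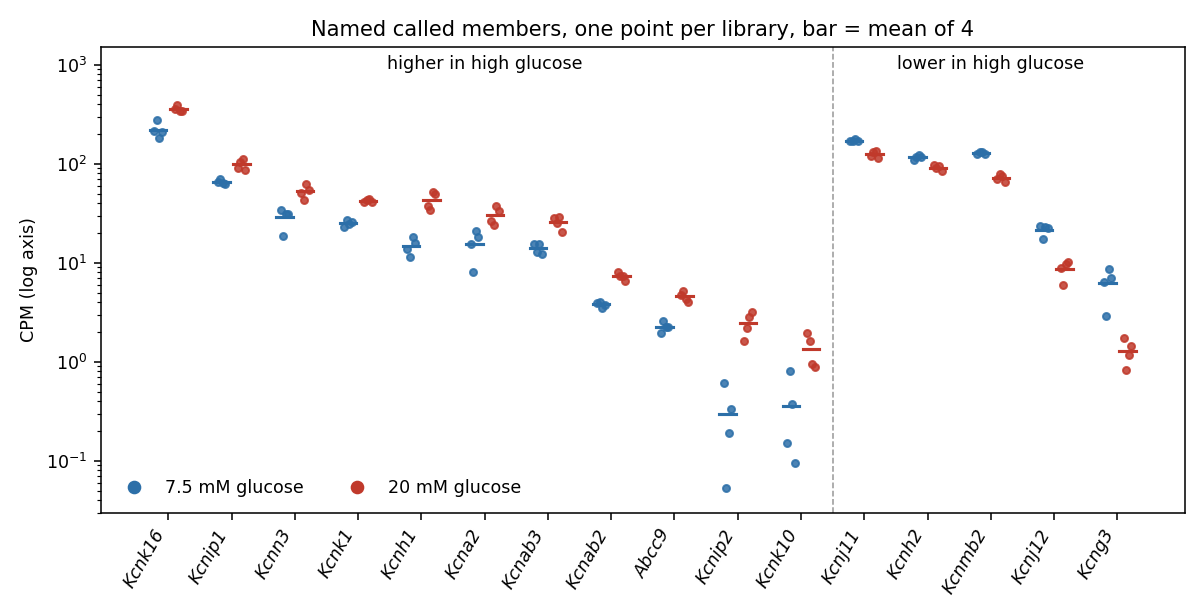
CPM on a logarithmic axis of 16 called members, 1 point per library and a bar at the mean of 4, in 7.5 mM (blue) and 20 mM glucose (red). In each of the 16 the 2 groups do not overlap, and the levels span from under 1 CPM for Kcnip2 and Kcnk10 in low glucose to 396.8 CPM for Kcnk16.

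Libraries within a group also differed. Low glucose replicate 2 had the lowest value of its group for Kcna2, Kcnn3, Kcnh1, Kcnj12 and Kcng3, of which some rose and some fell with glucose. It also had the highest value of its group for Kcnk16. Without both libraries numbered 2, a comparison added after the data were seen, 19 members (and 5033 of 15670 genes) were called, including all 17, and among the added ones was Kcnu1 (adjusted p = 0.0284).

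**Figure D5:**
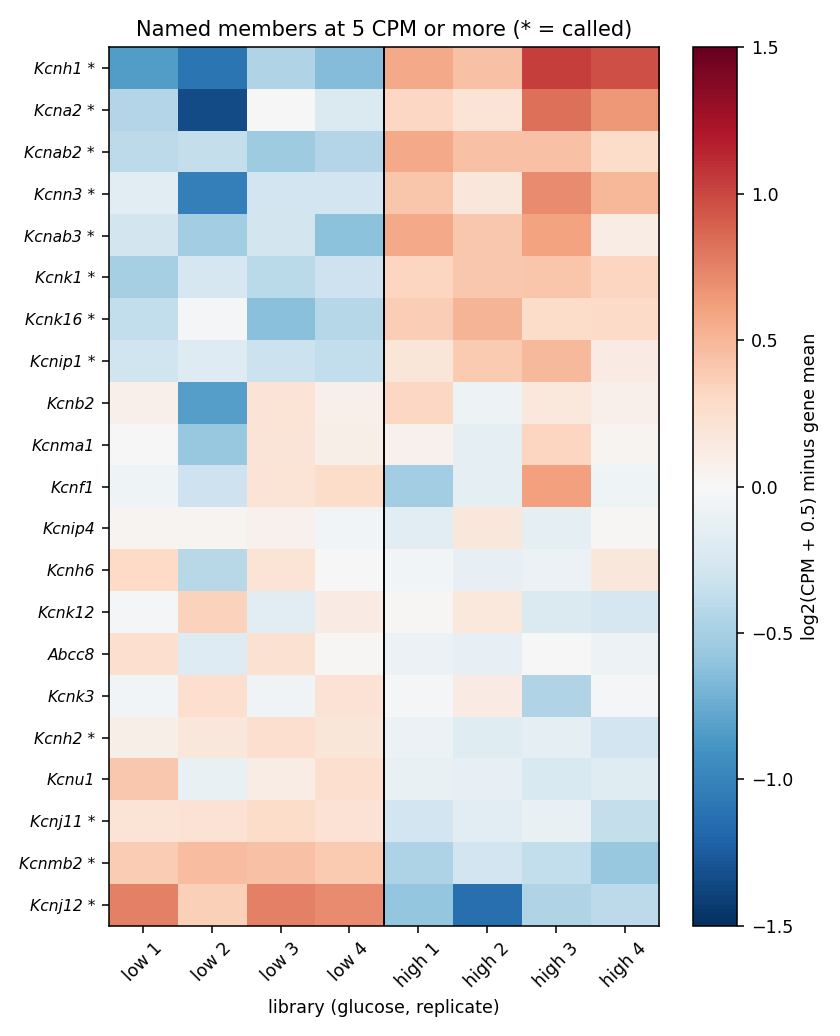
Heat map of log2(CPM + 0.5) minus the gene's mean over the 8 libraries for 21 named members at 5 CPM or more (rows, called genes starred) in each library (columns). Low glucose replicate 2 stands apart from the other low glucose libraries in several rows, among them Kcna2, Kcnn3, Kcnb2 and Kcnma1.

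The other side of the membrane circuit was read from a list of 36 genes that carry glucose sensing, depolarising current and ion pumping, 35 of them tested. Of these 4 were higher and 10 were lower, with a median log2 fold change of -0.18, beside 13.1% higher and 11.9% lower over all genes tested. Trpm5, a calcium-activated cation channel gene, averaged 90.6 ± 12.4 CPM at high and 213.1 ± 17.4 CPM at low glucose (SD, n = 4 each), 2.35-fold lower (adjusted p = 2.84e-05). Tssc4, on the other strand across part of Trpm5, had 63.8% of its counts and moved upward (log2 0.45, adjusted p = 0.00273), so the Trpm5 value is uncertain. Trpm2, a related cation channel gene, was 1.93-fold lower.

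The calcium channel subunit genes Cacnb3 and Cacna1g were 1.34-fold and 2.18-fold lower (adjusted p = 0.00116 and 0.00188). Slc2a2, the glucose transporter gene, was also among those that fell. Atp1b1, of the sodium pump, was 1.24-fold higher (adjusted p = 0.0150, but 0.0519 and 0.0550 without low glucose replicates 1 and 4). The higher count rests on the libraries used: it was 2 in 6 of the 8 fits that left out 1 library. The lower count was 16 without low glucose replicate 2.

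Of 15 genes for proteins that bind or regulate potassium channels without being members, 11 were tested, 1 rose and 3 fell, beside 13.1% higher and 11.9% lower over all genes tested. Dpp10, a partner of the Kcnd pores, averaged 17.7 ± 2.61 CPM at high and 34.7 ± 5.68 CPM at low glucose (SD, n = 4 each), 1.96-fold lower (adjusted p = 0.000598). Amigo1, a partner of voltage-gated channels, was 1.25-fold lower (adjusted p = 0.00479), and Nedd4l, a ubiquitin ligase gene, 1.40-fold lower (adjusted p = 0.00291). Kctd12, an auxiliary subunit of GABA receptors, was 2.22-fold higher at 47.6 ± 7.82 against 21.5 ± 1.96 CPM (adjusted p = 9.16e-05). The median log2 fold change of the 11 was -0.11.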

How the data were processed

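Bulk RNA sequencing of mouse islets gave 8 libraries, 4 per glucose concentration. The kit was NEBNext Ultra RNA, per the labels' protocols. The submitters' processing notes name STAR 2.5, HTSeq 2, DESeq2 (no version) and the builds mm10 and GRCm38. Sources used here do not give the strand setting, the annotation release or how multi-mapped reads were handled. Where genes overlap, counts are uncertain.

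Per the file headers, each library has a column of the authors' unnormalized counts per gene. The deposited FPKM equals the count divided by the listed gene length and by 1 total per library, and was used for levels between genes. The deposited signal is that count over a library's size factor and was only checked. The authors' own comparison, deposited as log2 fold changes and p-value columns, was used only for the agreement of calls.

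The test on counts was that of edgeR 4.0.16 under R 4.3.3 (TMM, filterByExpr with a minimum count of 10 and a minimum total of 15, quasi-likelihood fit with the group as its only term). Benjamini-Hochberg adjustment ran over all 15442 genes tested, at 0.05. Standard errors were taken as the log2 fold change over the root of its F statistic. Alternatives were DESeq2 1.42.0 size factors or its Wald test, library size alone, no filter, limma-voom (limma 3.58.1), a replicate block and leaving out each library. The fitting script was tested on simulated data.

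Replicate numbers 1 to 4 recur in both groups, and the labels do not explain them. Deviations of same-numbered libraries correlated at 0.101, 0.449, 0.404 and 0.475 over genes. All were above 0.1, so the numbers were treated as possible pairs, a pairing that comes from the data and not from the labels. The main test ignores this pairing, and the replicate block, which uses it, is an alternative. High glucose replicate 4 correlated at 0.207 with low glucose replicate 1, more than that replicate did with its own number, and the other pairs of unlike number gave -0.367 to 0.0880. The smallest chi-square per gene between libraries was 14.1, so none was a copy. With 3 counts as the floor, libraries reached 0.120 to 0.154 CPM, which covers counting error only.

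Genes were named if they belonged to a panel of islet channels, passed the test, or were the 2 most abundant in their family that did not pass. From each list, up to 4 passing genes of lowest adjusted p were named, and up to 2 that passed the opposite way. Slc2a2 and the overlapping genes were added after their values were seen. Members, panel, lists and tests were chosen with earlier results of these data known. Results of some genes are counted in the totals but not reported here. Promoter windows come from RefSeq (GRCm38.p6), and other coordinates from the deposited table.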

Additional observations from a re-analysis of the deposited data

Results flagged for a closer look

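Among 88 groups of 4 libraries examined for the named genes, 7 held 1 library far from the other 3, where chance gives about 1 in 20. In low glucose, Kcnj11 had its highest library, replicate 3, at 176.7 CPM, while the others lay within 168.5 to 169.5 CPM. Kcnj12 had its lowest low glucose library, replicate 2, at 17.5 CPM. Nedd4l was lowest in replicate 2 of both groups, with 33.7 CPM (high glucose) and 43.1 CPM (low glucose). In high glucose, Kcnj4 was highest at 1.92 CPM in replicate 2, Kcnj5 at 0.565 CPM in replicate 4 and Amigo1 at 73.5 CPM in replicate 1. None of these libraries closed the gap between the groups for Kcnj11, Kcnj12, Nedd4l or Amigo1.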

How the results depend on the processing

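The count of 17 called members was 16 to 21 over the fits that left out 1 library and 17 to 19 under the other settings. Of the 16 called members named in the text, 14 kept their call in all 15 settings, and Kcna2 and Kcnk10 did not. The count of lower members was 6 to 10 over the fits without 1 library, the highest without low glucose replicate 2. Over the same fits the excitation list gave 2 to 4 higher and 8 to 16 lower genes, the last without low glucose replicate 2, and 2 higher with library size alone. The partner list gave 1 to 2 higher, the latter without high glucose replicate 3. The Kcnj11/Abcc8 log2 difference was -0.38 to -0.23, and its p with the replicate block, an exact sign-flip test over the 4 pairs, was 0.125, the smallest that test can give. The replicate block moved the count of members from 17 to 19 and that over all genes from 3854 to 5779, and changed no call of a named gene other than Kcna1. Scaling by library size alone moved the median log2 fold change of all genes from -0.01 to -0.09. Over 43 named genes and 15 settings, 618 values kept direction and call, 16 reversed, 8 lost and 3 gained a call.

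The reversals were all of genes that were never called. Each gene listed below had a main log2 fold change smaller than its SE. The largest were 0.32 ± 0.45 for Kcnh5 and 0.31 ± 0.52 for Kcnq1 (SE). Without 1 library, log2 fold changes were -0.24 to 0.093 for Kcnc2, -0.32 to 0.40 for Kcnd2, -0.28 to 0.13 for Kcnf1 and -0.0073 to 0.54 for Kcnh5. They were -0.19 to 0.024 for Kcnh6, -0.16 to 0.28 for Kcnj3, -0.012 to 0.21 for Kcnma1 and -0.28 to 0.68 for Kcnq1. Kcnj3 was also -0.12 without both libraries numbered 2. The cause was not tested. Depth limits Kcnip2, Kcnk10, Kcng2 and Kcng4, whose low glucose libraries held 16 counts or fewer.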
